A study of Homo sapiens with 6 samples.

Results

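Transcripts of 10 genes that govern or mark the switch between epithelial and mesenchymal cell states were followed in CAOV2 human ovarian cancer cells after TAZ was silenced. They were chosen by symbol: the repressors ZEB1, SNAI1 and SNAI2, the E protein TCF4, the filament gene VIM, the epithelial transcription factors GRHL2 and OVOL1, the splicing regulators ESRP1 and ESRP2, and the adhesion gene CDH1. Of these 10 genes, 8 had a value among the 17211 genes of the deposited table, and all 8 passed the filter on low values. GRHL2 and OVOL1 were not analysed here.

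CAOV2 cells, called both a cell line and primary ovarian cancer cells in the labels, were transfected in wells of 100000 cells using 6 µL of lipid reagent and 100 pmol of siRNA, left for 2 days, and collected on day 3. In 3 samples the siRNA was directed at TAZ (siTAZ), and in 3 it was a non-targeting control (siNT), so that both groups went through transfection. The labels give a single catalogue number for the TAZ siRNA. The samples are named biological replicates, but no label ties them to separate cultures, and p-values therefore reflect only the scatter among these 6 libraries, some of which may be technical. A single cell line was used.

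In the epithelial to mesenchymal transition (EMT), cells loosen their junctions and take on a motile, fibroblast-like state. SNAIL and ZEB zinc finger proteins drive it by binding E-box sequences and repressing CDH1, which encodes E-cadherin, and other junction genes. GRHL and OVOL factors restrain ZEB1 in epithelial cells, and the ESRP proteins keep the epithelial pattern of alternative exons in transcripts such as those of FGFR2 and CD44. TAZ, encoded by WWTR1, is a coactivator of the Hippo pathway that has been tied to mesenchymal traits.

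A set of 4 promoter windows are printed to show the binding letters that the ZEB and SNAIL repressors and the TEAD partners of TAZ could read at members of this group. Each window holds 250 bases before and 50 bases after a transcript start from RefSeq on GRCh38.p14, 5′ to 3′ on the strand of the gene. Windows were found for 3 of the 10 genes, ZEB1, TCF4 and VIM. Capitals mark matches, on either strand, to the E-box letters CAGGTG (reverse CACCTG) and CAGGTA (reverse TACCTG), to the TEAD letters GGAATG (reverse CATTCC) and to the AP-1 letters TGANTCA. The E-box forms share their first 5 letters and cannot match at the same place. The authors' genes were counted on hg19, so these coordinates describe the printed sequence only.
ZEB1, chr10:31318966-31319265, + strand: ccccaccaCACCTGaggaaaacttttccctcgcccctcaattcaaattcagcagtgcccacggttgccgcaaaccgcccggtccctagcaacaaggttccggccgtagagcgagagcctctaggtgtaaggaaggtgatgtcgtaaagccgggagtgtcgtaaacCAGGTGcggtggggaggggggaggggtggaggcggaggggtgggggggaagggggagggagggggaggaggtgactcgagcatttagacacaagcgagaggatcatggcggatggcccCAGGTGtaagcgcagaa
ZEB1, chr10:31318167-31318466, + strand: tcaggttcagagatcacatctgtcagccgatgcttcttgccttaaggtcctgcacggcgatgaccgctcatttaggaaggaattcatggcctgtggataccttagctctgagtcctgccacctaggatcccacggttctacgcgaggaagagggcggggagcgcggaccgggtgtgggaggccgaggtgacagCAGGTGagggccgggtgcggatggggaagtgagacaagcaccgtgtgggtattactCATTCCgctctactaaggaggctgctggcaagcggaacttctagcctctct
TCF4, chr18:55321792-55322091, - strand: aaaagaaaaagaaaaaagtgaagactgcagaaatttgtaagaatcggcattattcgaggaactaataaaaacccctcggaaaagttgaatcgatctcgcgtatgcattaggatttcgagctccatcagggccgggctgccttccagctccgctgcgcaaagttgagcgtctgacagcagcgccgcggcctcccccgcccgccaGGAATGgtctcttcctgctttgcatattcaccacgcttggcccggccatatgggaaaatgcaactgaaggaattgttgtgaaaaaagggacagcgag
VIM, chr10:17227991-17228290, + strand: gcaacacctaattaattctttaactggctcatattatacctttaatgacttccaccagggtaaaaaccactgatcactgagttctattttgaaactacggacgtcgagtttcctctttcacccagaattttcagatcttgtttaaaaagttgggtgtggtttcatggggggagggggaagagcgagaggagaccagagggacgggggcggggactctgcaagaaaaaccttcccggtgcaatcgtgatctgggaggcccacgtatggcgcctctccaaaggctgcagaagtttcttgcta

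The first ZEB1 window holds 3 matches to CAGGTG, and the second holds 1 match to CAGGTG and 1 to the TEAD letters. Of the 7 ZEB1 windows in the table, 2 held CAGGTG, 3 held CAGGTA, 1 held the TEAD letters, 0 held the AP-1 letters and 2 held none of these motifs. Of the 10 TCF4 windows, 3 held the TEAD letters, 1 held the AP-1 letters and 6 held none. The VIM window held none. Among all 35116 windows of the same length, 20.6% held CAGGTG, 9.83% CAGGTA, 14.0% the TEAD letters and 7.71% the AP-1 letters. These matches describe letters only. The deposited values are sums per gene and do not tell which start site was used.

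Levels below are deposited values, that is reads in a gene divided by the size factor of the library, and groups are given as mean ± SD with n = 3. The 6 libraries held 25478595 to 34488196 reads in listed genes, and their size factors ran from 0.828 to 1.17. Mitochondrial transcripts took 2.85% to 3.91% of the reads. WWTR1, the target of the siRNA, fell 16.1-fold, from 4278 ± 73.2 to 266 ± 21.04 (limma adjusted p = 8.0e-17). Keratins of simple epithelium were abundant in every library, as the counts of KRT8 and KRT18 given later show. The ovarian lineage markers PAX8 and MUC16 were scarce, at 28.8 ± 13.9 and 11.9 ± 3.67 in siNT, and WT1, SOX17 and WFDC2 were not analysed here.

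The comparison of siTAZ with siNT asks how these regulators change when TAZ is silenced. In the siTAZ libraries the transcripts of ZEB1, SNAI1, SNAI2 and VIM were lower and those of CDH1 and TCF4 were higher, while ESRP1 and ESRP2 did not pass the test. Of the 8 genes, 2 rose and 4 fell at a limma adjusted p under 0.05. The same test called 55.8% of all 17204 genes tested, 28.3% as higher and 27.5% as lower, and 66.1% of genes with a mean value of at least 100, so that 6 of 8 is not far from the background. The libraries of the groups did not overlap for those 6 genes, which was also the case for 61.4% of all genes tested. The median log2 fold change was -0.16 over the 8 genes and -0.0013 over all genes, and the median size regardless of sign was 0.55 against 0.31.

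ZEB1 (ENSG00000148516, chromosome 10), a zinc finger and homeodomain repressor of CDH1, stood at 1486, 1409.9 and 1469 in the siNT libraries and at 999, 1088 and 1079.8 in the siTAZ libraries. Every siTAZ library lay below every siNT library. The fall was 1.38-fold, or -0.46 on the log2 scale with an SE of 0.06 (limma adjusted p = 2.6e-06). A change at least this large was seen in 34.8% of all genes tested.

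SNAI1 (ENSG00000124216, chromosome 20), the founding SNAIL repressor, had 221, 284 and 285 in siNT and 193, 162 and 180.0 in siTAZ. The groups did not overlap, although siNT replicate 1 and siTAZ replicate 1 came close to each other. The fall was 1.48-fold (log2 fold change -0.55, SE 0.11, limma adjusted p = 5.0e-04). SNAI2 (ENSG00000019549, chromosome 8), also called SLUG, had 183, 153 and 215 in siNT against 124, 122 and 125 in siTAZ. Its siNT libraries were spread widely, while the siTAZ libraries lay within a few units of one another. SNAI2 fell 1.49-fold (log2 fold change -0.56, SE 0.12, limma adjusted p = 0.0010). Tested against a fold of 1.2 in place of no change, SNAI2 no longer passed (limma treat adjusted p = 0.058), whereas ZEB1, SNAI1, VIM, CDH1 and TCF4 did.

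VIM (ENSG00000026025, chromosome 10) encodes vimentin, the intermediate filament of mesenchymal cells. It was by far the most abundant of the 8 transcripts, at 168998, 174033 and 183478 in siNT and 124996, 113366 and 117606 in siTAZ. All siTAZ values were below the siNT values, yet the lowest of them still exceeded 100000. VIM fell 1.48-fold (log2 fold change -0.57, SE 0.05, limma adjusted p = 1.5e-07). The 95% intervals of the 4 log2 fold changes that fell overlapped, from -0.58 to -0.34 for ZEB1, -0.79 to -0.31 for SNAI1, -0.82 to -0.29 for SNAI2 and -0.68 to -0.45 for VIM.

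CDH1 (ENSG00000039068, chromosome 16), the E-cadherin gene, had 257, 239 and 271 in siNT and 563, 582 and 593 in siTAZ. The groups were far apart relative to their spread, and in these bulk samples a change in the number of expressing cells cannot be told apart from a change in RNA per cell. CDH1 rose 2.27-fold (log2 fold change 1.18, SE 0.08, limma adjusted p = 1.4e-09), a size reached by 8.29% of all genes tested.

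TCF4 (ENSG00000196628, chromosome 18) encodes E2-2, a basic helix-loop-helix E protein that can repress CDH1 and is often counted among EMT inducers. It is not TCF7L2, the WNT effector that is also known as TCF4. Its values were 90.1, 97.3 and 88.2 in siNT and 259.8, 309 and 293 in siTAZ. The libraries were tightly grouped in siNT and all siTAZ libraries were higher. TCF4 rose 3.13-fold (log2 fold change 1.63, SE 0.11, limma adjusted p = 1.4e-09), and 3.49% of all genes tested changed by as much. Of the inducers ZEB1, SNAI1, SNAI2 and TCF4, TCF4 alone rose and the other three fell.

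ESRP2 (ENSG00000103067, chromosome 16), an RNA-binding protein of epithelial splicing, had 1314, 1384 and 1539.5 in siNT and 1642, 1525 and 1506 in siTAZ. The highest siNT library lay above the lower siTAZ libraries, so the groups overlapped. The log2 fold change of 0.14 had a 95% interval of 0.01 to 0.28 and did not pass (limma adjusted p = 0.065). ESRP2 passed as higher in edgeR (adjusted p = 0.045), in limma voom (0.043), with total count scaling (0.012) and without siNT replicate 3 (0.017). Over 18 alternatives its adjusted p lay between 0.012 and 1.0. ESRP1 (ENSG00000104413, chromosome 8), its close relative, was near the floor with 8, 9 and 3 reads in siNT and 6, 12 and 9 reads in siTAZ. The corresponding values of 8.38, 9.62 and 3.63 against 6.23, 11.01 and 7.68 overlapped fully. At this depth the 95% interval of its log2 fold change ran from -0.66 to 1.13 (limma adjusted p = 0.66), which holds both falls and rises. The sign turned without siNT replicate 3 (log2 fold change -0.13).

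**Figure D1:**
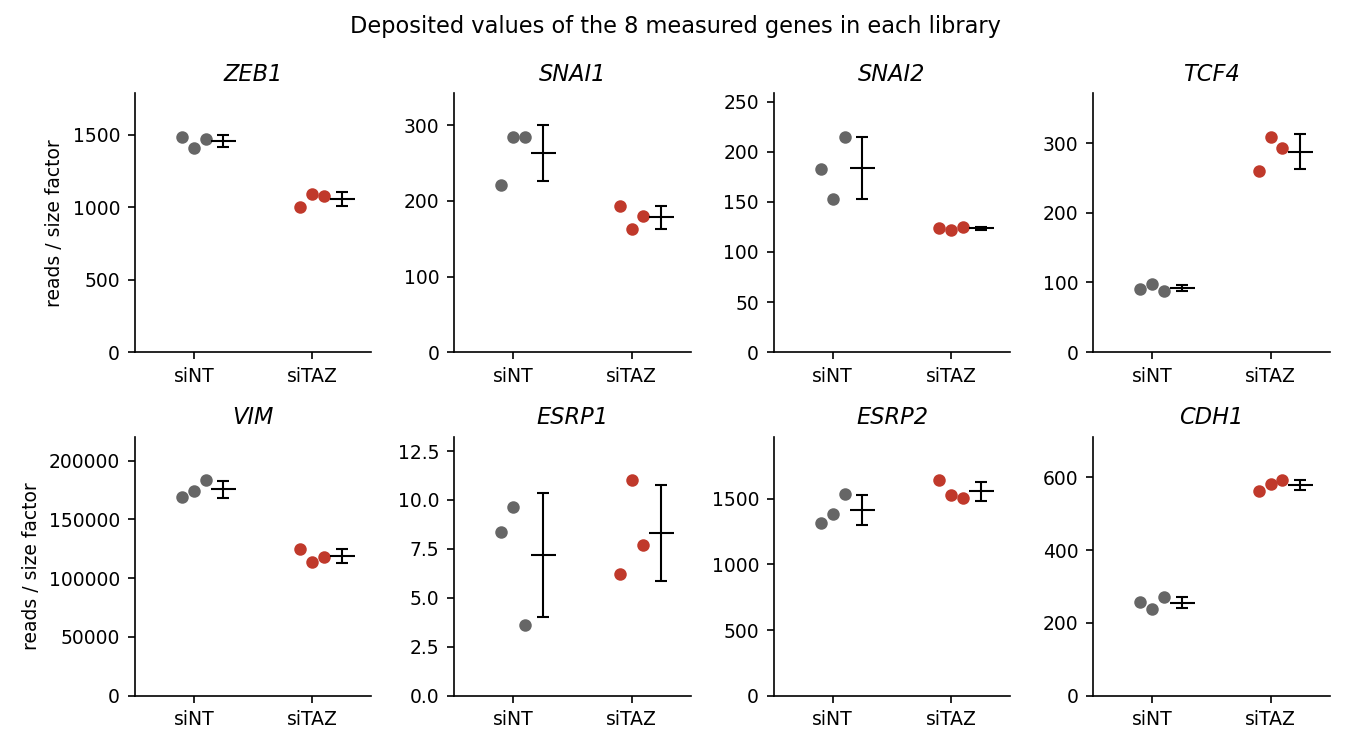
Deposited values (reads divided by the size factor, linear axes from 0) of the 8 measured genes in the 3 siNT (grey) and 3 siTAZ (red) libraries, with mean and SD beside the points. The siTAZ points of ZEB1, SNAI1, SNAI2 and VIM all lie below the siNT points, those of CDH1 and TCF4 all lie above, and those of ESRP1 and ESRP2 overlap.

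**Figure D2:**
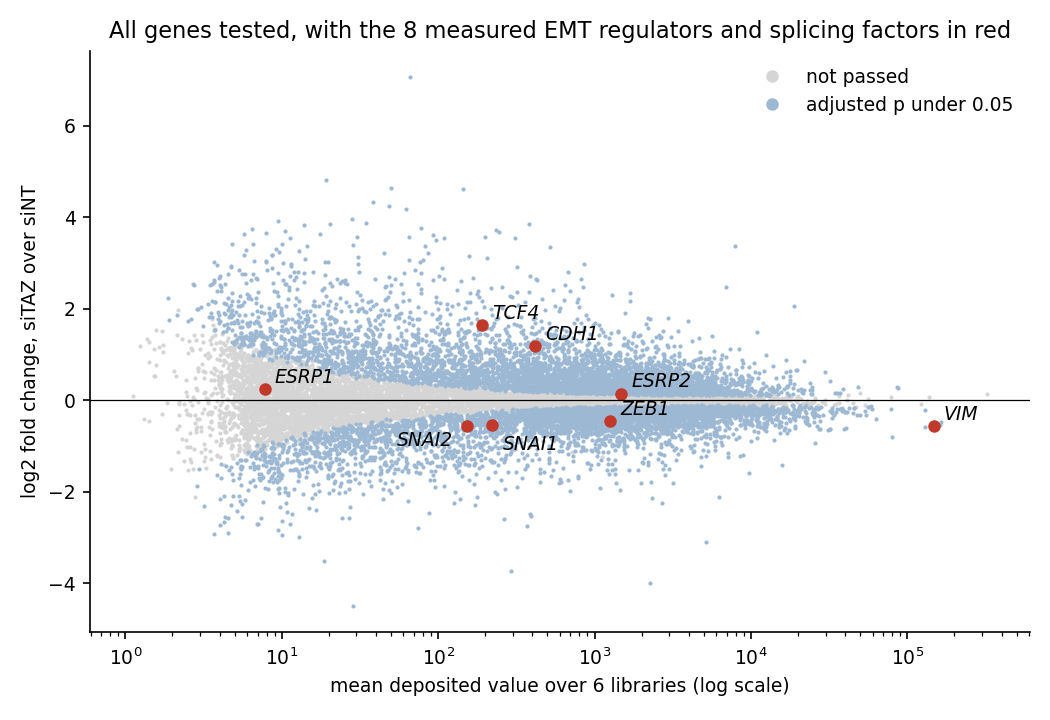
Log2 fold change of siTAZ over siNT against the mean deposited value over the 6 libraries (log axis) for the 17204 genes tested, with the 8 genes in red and genes with an adjusted p under 0.05 in blue. VIM sits at the abundant end with a log2 fold change of -0.57, and TCF4 and CDH1 sit above most genes of their level at 1.63 and 1.18.

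No source states whether the counting used strand, so overlapping transcripts could have added reads to some of these values or taken reads from them. ZEB1-AS1, which overlaps a ZEB1 exon on the opposite strand, fell from 213 ± 11.6 to 105 ± 13.0 (limma adjusted p = 1.1e-06). VIM-AS1 fell from 1179 ± 154 to 794 ± 125 (limma adjusted p = 1.1e-04), a small amount beside VIM itself. AL133415.1, also opposite VIM, fell from 166 ± 36.9 to 103 ± 48.9 (limma adjusted p = 0.015). NFATC3, which overlaps ESRP2 exons on the opposite strand, rose from 2049 ± 72.4 to 2393 ± 154 (limma adjusted p = 0.0026). AC020978.5, which overlaps ESRP2 exons on the same strand, rose from 114 ± 10.7 to 148 ± 0.446 (limma adjusted p = 0.010). Strand could not separate reads of that overlap from those of ESRP2. The part of these partners in the values of ZEB1, VIM and ESRP2 was not tested. SNAI1 has a processed pseudogene, SNAI1P1, that could share its reads.

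Levels of different genes were compared per kilobase of the longest coding transcript in GENCODE. On that scale the siNT order ran from VIM (82203 ± 3443 per kb) through ESRP2 (372 ± 30.4), ZEB1 (232 ± 6.38), SNAI1 (156 ± 21.9), SNAI2 (75.7 ± 12.8), CDH1 (52.3 ± 3.20) and TCF4 (11.01 ± 0.57) to ESRP1 (1.89 ± 0.83). In siTAZ, CDH1 reached 118 ± 3.06 per kb and stood above SNAI1 at 106 ± 9.16, neighbours that lay less than 2 SD of SNAI1 apart, and above SNAI2 (50.8 ± 0.51). The order was otherwise the same, and TCF4 (34.5 ± 3.03) stayed below SNAI2 and ESRP1 (2.18 ± 0.64) stayed last. The transcript length in use is unknown, and TCF4 in particular has many transcript forms.

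Ratios of deposited values within a library do not depend on the size factor. They were not corrected for transcript length, so their size is not a ratio of molecules. VIM exceeded CDH1 by 659, 727 and 678 times in the siNT libraries and by 222, 195 and 198 times in the siTAZ libraries. The log2 ratio went from 9.42 ± 0.07 to 7.68 ± 0.10, a 3.36-fold lower ratio, and the VIM value still exceeded that of CDH1 in every library. The ratio of ZEB1 to CDH1 was 5.79, 5.89 and 5.43 in siNT and 1.77, 1.87 and 1.82 in siTAZ. SNAI2 to SNAI1 showed no such shift, at log2 ratios of -0.52 ± 0.33 and -0.53 ± 0.12, and neither did ESRP2 to ESRP1, at 7.73 ± 0.87 and 7.59 ± 0.46, where the few ESRP1 reads set the spread. These ratios are descriptions without a test, and those of ZEB1 to CDH1 and ZEB1 to ZEB2 were chosen after their values were seen.

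**Figure D3:**
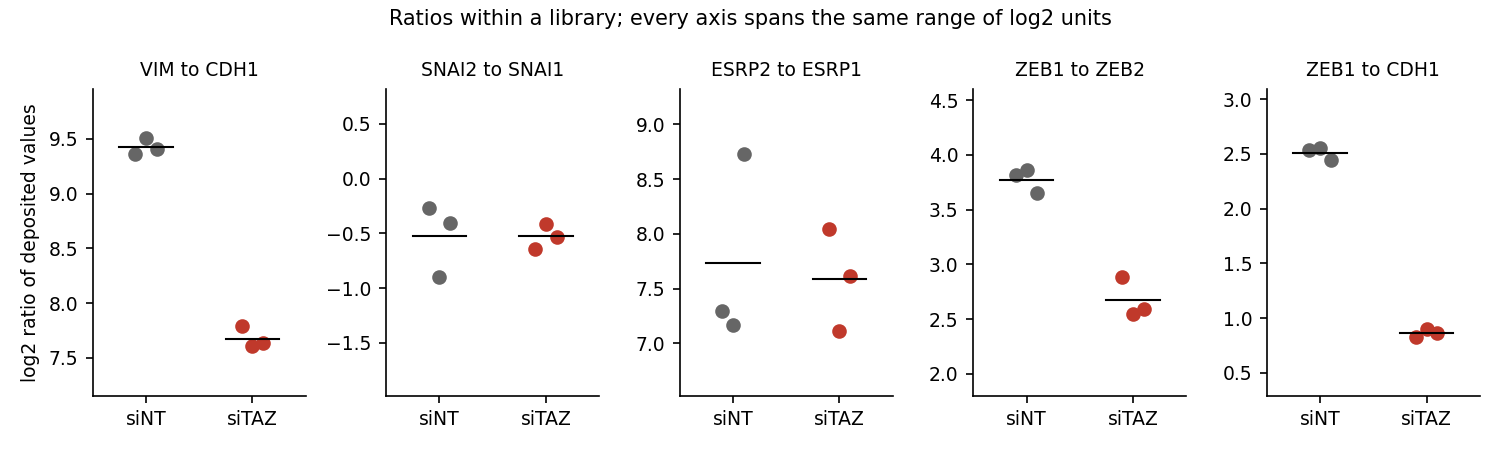
Log2 ratios of the deposited values of gene pairs in each siNT (grey) and siTAZ (red) library, with group means as bars and equal spans on every axis. VIM to CDH1, ZEB1 to ZEB2 and ZEB1 to CDH1 are lower in all siTAZ libraries, whereas SNAI2 to SNAI1 and ESRP2 to ESRP1 overlap between the groups.

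The paralogs did not all follow the member of their family. ZEB2, which binds the same E-boxes as ZEB1, rose 1.56-fold, with means of 107 ± 10.0 and 167 ± 27.7 (limma adjusted p = 7.4e-04). ZEB1 remained the main form, with 95.4% ± 0.34 of the ZEB transcripts per kb in siNT and 90.7% ± 1.05 in siTAZ, and the ZEB sum per kb was 243 ± 7.14 and 186 ± 10.8. SNAI3, at 5.79 ± 5.48 and 6.02 ± 3.30, was too scarce to judge (limma adjusted p = 0.76). The summed SNAIL level per kb was 235 ± 28.3 in siNT and 160.2 ± 11.4 in siTAZ.

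Among the E proteins, TCF3 (E2A, E47) fell 1.19-fold, with means of 9979 ± 747 and 8359.8 ± 551 (limma adjusted p = 0.0013), and TCF12 (HEB) did not pass, at 4879.7 ± 49.9 and 4739 ± 210.2 (limma adjusted p = 0.45). TCF4 went from 0.36% ± 0.02 to 1.28% ± 0.15 of the E protein transcripts per kb, and remained a minor form beside TCF3 and TCF12. ID2 and ID3, which sequester E proteins as inactive dimers, rose 1.53-fold and 1.65-fold, from 2411 ± 91.8 to 3694 ± 127 and from 5395 ± 371 to 8926 ± 364. ID1, the most abundant measured ID gene by deposited value, did not pass, at 11855 ± 479 and 11792 ± 649 (limma adjusted p = 0.90). TCF7L2, named above, rose 1.44-fold, from 1585 ± 48.0 to 2276 ± 54.7.

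**Figure D4:**
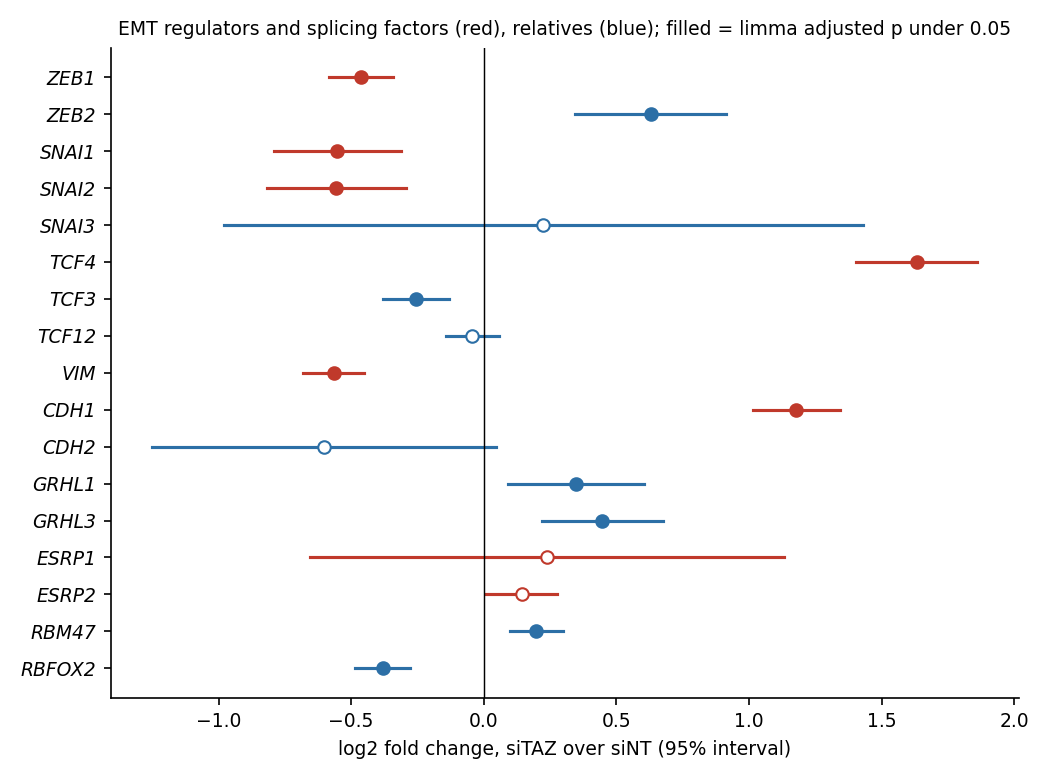
Log2 fold changes of siTAZ over siNT with 95% intervals from limma for the 8 genes (red) and relatives (blue), filled where the adjusted p was under 0.05. ZEB1 lies at -0.46 and ZEB2 at 0.63, TCF4 at 1.63 and TCF3 at -0.25, and the intervals of SNAI3, TCF12, CDH2 and ESRP1 cross 0.

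Other transcription factors tied to EMT moved in both directions. Of 16 measured in a list of 22, 5 rose, 3 fell and 8 missed the threshold, and their median log2 fold change was 0.03. The share called was below the 55.8% of all genes tested and the 66.1% of those with a mean value of at least 100. ETS1, an ETS factor of invasive cells, fell 2.47-fold, from 4689 ± 218 to 1900.5 ± 32.4 (limma adjusted p = 2.2e-12), the largest change in this list. SOX4, an SRY-related factor, rose 1.51-fold, from 8960.1 ± 208 to 13505 ± 68.0. TWIST1, TWIST2, FOXC2, GSC, KLF8 and ID4 were not analysed here.

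Transcription factors of epithelial cells mostly rose: 13 of 18 measured, with 1 fall and 4 without a call, and a median of 0.55. Calls in either direction made up 77.8% of this list, against 55.8% of all genes tested. Among genes with a mean value of at least 100 the called share was 66.1%. The fall was KLF4, a Kruppel-like factor, and 2 fell in edgeR, with the filter of 1 CPM, with a pseudocount of 10 and without siNT replicate 3. GRHL3 and GRHL1, relatives of GRHL2 that activate junction and barrier genes, rose 1.36-fold, from 140.1 ± 12.7 to 191 ± 7.62 (limma adjusted p = 0.0019), and 1.27-fold, from 124 ± 12.5 to 158 ± 15.6 (limma adjusted p = 0.021). The GRHL1 call was lost in DESeq2 (adjusted p = 0.054) and without siNT replicate 1 (0.089), siTAZ replicate 1 (0.080) or siTAZ replicate 3 (0.059). It was also lost against a fold of 1.2 (limma treat adjusted p = 0.55). SPDEF, an ETS factor of secretory epithelium, rose 12.9-fold, from 35.2 ± 9.36 to 453 ± 21.4 (limma adjusted p = 4.7e-12). CDX2, a factor of gut epithelium, rose 2.91-fold, from 290.0 ± 27.1 to 844 ± 34.1, and ELF3, an epithelial ETS factor, rose 2.31-fold. OVOL2, the relative of OVOL1, was not analysed here.

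Genes that SNAIL or ZEB factors are known to repress rose for 19 of 26 measured members, fell for 5 and had no call for 2, and the list median was 0.71. Calls made up 92.3% of the list, against 55.8% of all genes tested and 66.1% of those with a mean value of at least 100. The list, like the others, was chosen with earlier results of these data known, so its share is a description. Most of the genes that rose belong to tight junctions, polarity complexes and desmosomes. SPINT1, a Kunitz inhibitor of matriptase, rose 3.12-fold, from 515 ± 24.6 to 1609 ± 146 (limma adjusted p = 7.1e-12). CGN, the tight junction protein cingulin, rose 2.70-fold, from 1403 ± 33.9 to 3783 ± 132, and EPCAM, an epithelial adhesion molecule, rose 2.72-fold. The list is not uniform: CLDN4, AP1M2, PALS1, MYO5B and MUC1 fell, with log2 fold changes of -1.45, -1.42, -0.46, -0.43 and -0.58, and CLDN3 and SPINT2 did not pass. AP1M2, PALS1, MYO5B and MUC1 were named after their values were seen, as the remaining falls of the list.

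At the adherens junction, CDH1 was accompanied by CDH6, a type II cadherin, which rose 2.58-fold, from 689.6 ± 44.4 to 1779 ± 85.9 (limma adjusted p = 1.7e-11). Per kb, CDH1 made up 34.9% ± 2.68 of the summed CDH1, CDH2, CDH6 and CDH11 transcripts in siNT and 34.9% ± 0.76 in siTAZ, while CDH6 went from 54.3% ± 2.48 to 61.7% ± 0.69 and CDH11 from 8.22% ± 0.27 to 2.73% ± 0.10. The level of CDH11 fell 1.33-fold, from 12.3 ± 0.18 to 9.29 ± 0.52 per kb (limma adjusted p = 0.021), as the sum of the 4 cadherins went from 149.7 ± 2.81 to 340.03 ± 13.0 per kb. CDH2, N-cadherin, the cadherin of mesenchymal cells, was scarce, at 16.4 ± 3.79 and 10.3 ± 0.824, and did not pass (log2 fold change -0.60, limma adjusted p = 0.10), although its libraries did not overlap. It passed without the intensity trend (limma adjusted p = 0.037). CDH3 was not analysed here.

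Of 14 measured partners and other cadherins, 8 rose, 4 fell and 2 had no call, and the list median was 0.20. The share called was 85.7%, against 55.8% of all genes tested and 66.1% of those with a mean value of at least 100. Without siTAZ replicate 3, 2 fell. JUP, plakoglobin, rose 1.51-fold, from 5349 ± 320.2 to 8086 ± 423, NECTIN1, an adhesion receptor, rose 2.04-fold, and VCL, vinculin, fell 1.63-fold, from 13777 ± 333 to 8449.7 ± 213. CTNND1, p120 catenin, which holds E-cadherin at the membrane, rose 1.24-fold, from 15164 ± 346 to 18874 ± 614 (limma adjusted p = 1.3e-05). CTNNB1, beta-catenin, rose 1.08-fold (limma adjusted p = 0.030). That call was lost when siTAZ replicate 3 (0.11) or 2 (0.066) was left out, and likewise for siNT replicate 3 (0.095) or 2 (0.080). A replicate block (limma adjusted p = 0.16), a fit without the intensity trend (0.065) and the test against a fold of 1.2 also lost it.

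The filament genes beside VIM were split, with 5 rises, 5 falls and 6 that did not pass of 16 measured. This was a called share of 62.5%, near the 55.8% of all genes tested. KRT8 rose 1.12-fold, from 35206 ± 1349 to 39346 ± 1316 (limma adjusted p = 0.0084), and its partner KRT18 fell 1.23-fold, from 27495 ± 1133 to 22365 ± 1129 (limma adjusted p = 7.0e-05). The KRT8 call was lost without the intensity trend (limma adjusted p = 0.053), with a replicate block (0.057) and against a fold of 1.2. The KRT18 call was also lost against a fold of 1.2 (limma treat adjusted p = 0.55). KRT19, a keratin of simple epithelium, rose 1.59-fold, and SYNM, synemin, a filament protein that assembles with vimentin, rose 1.60-fold, from 1531 ± 27.9 to 2449.8 ± 28.5. VIM made up 59.2% ± 0.89 of the summed VIM, KRT7, KRT8, KRT18, KRT19 and KRT80 transcripts per kb in siNT and 51.4% ± 0.12 in siTAZ. KRT19 went from 7.76% ± 0.28 to 15.8% ± 0.14 of the same sum, and KRT7 from 9.38% ± 0.18 to 4.53% ± 0.26. The keratins KRT7 and KRT80 fell 2.66-fold, from 22847 ± 1266 to 8604 ± 879, and 1.74-fold, from 8127 ± 432 to 4675 ± 423 (limma adjusted p = 1.2e-11 and 6.6e-09).

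Mesenchymal genes other than VIM fell for 10 of 21 measured members, rose for 5 and had no call for 6, and the list median was -0.37. Calls made up 71.4% of the list, against 55.8% of all genes tested and 66.1% of those with a mean value of at least 100. LOXL2, a collagen crosslinking enzyme that also acts with SNAI1, fell 2.24-fold, from 2176 ± 107 to 973 ± 47.2 (limma adjusted p = 5.0e-11). TAGLN, transgelin, and S100A4, a calcium-binding protein, fell 3.55-fold and 2.13-fold. COL3A1, a fibrillar collagen, rose 2.13-fold, from 661 ± 76.9 to 1408 ± 94.2 (limma adjusted p = 4.2e-09). FN1, fibronectin, a common EMT marker, did not pass, at 16376 ± 977 and 16212 ± 363 (log2 fold change -0.01, SE 0.05, limma adjusted p = 0.84).

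The fibroblast marker list, of which 7 of 11 genes were measured, summed to 6069 to 6875 in siNT and 7342 to 8212 in siTAZ, and DCN, THY1, FAP and POSTN were not analysed here. The 5 measured of 12 leukocyte markers summed to 163 to 182 in siNT and 275 to 318 in siTAZ, PTPRC not being analysed here. Of 10 endothelial markers only ESAM was measured (1673 to 1873 in siNT and 1090.4 to 1289 in siTAZ), 4 of 8 mesothelial markers summed to 166 to 181 and 117 to 143, and 4 of 8 smooth muscle markers to 372 to 399 and 150.1 to 201. Single markers did not all follow the sum of their list. Of the fibroblast markers 4 rose and 1 fell, of the leukocyte markers 2 rose and 2 fell. Among smooth muscle markers 1 rose and 2 fell, and among mesothelial markers 1 fell and 3 did not pass. The same test called 55.8% of all genes tested. The smooth muscle sum, to which TAGLN contributed most in siNT, was lower in siTAZ like VIM, and the fibroblast sum was higher. The part of these marker genes in the result for VIM was not tested.

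Splicing regulators of the epithelial and mesenchymal programmes changed in both directions. Of 22 measured, 4 rose, 11 fell and 7 had no call, the list median was -0.11, and 7 fell with total count scaling. The share called was 68.2%, against 55.8% of all genes tested. Among genes with a mean value of at least 100 it was 66.1%, close to that of this list. RBFOX2, which favours mesenchymal exons, fell 1.30-fold, with means of 4159 ± 10.3 and 3196 ± 168 (limma adjusted p = 4.6e-06), and RBM47, which acts beside the ESRP proteins in epithelial cells, rose 1.15-fold, from 3512 ± 60.0 to 4033 ± 174 (limma adjusted p = 0.0019). PTBP2, a repressor of exons best known from neurons, rose 1.65-fold, from 485 ± 32.0 to 798 ± 88.4, and RBM24, an RNA-binding protein best known from muscle, fell 1.61-fold, from 107 ± 26.5 to 66.7 ± 5.69 (limma adjusted p = 0.0037). HNRNPF and AKAP8 fell 1.24-fold and 1.30-fold, and QKI was not analysed here.

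Genes whose exons ESRP proteins regulate were described only by their total level, since exon use cannot be read from sums per gene. Of 24, 6 rose, 7 fell and 11 had no call, and the list median was 0.04. A called share of 54.2% was near the 55.8% of all genes tested. CD44, a hyaluronan receptor whose variable exons are an ESRP target, fell 2.22-fold, from 9861 ± 499 to 4442 ± 147 (limma adjusted p = 7.1e-12). ARFGAP2 fell 1.73-fold. FGFR2, the receptor whose exon choice is the textbook ESRP event, was scarce and rose 2.54-fold, from 10.7 ± 1.18 to 27.2 ± 5.46 (limma adjusted p = 8.5e-04).

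The cofactors and upstream signals of the SNAIL and ZEB factors were also split. Of 22 corepressors and chromatin partners, 6 rose, 7 fell and 9 had no call, and the list median was 0.02. Calls made up 59.1% of the list, near the 55.8% of all genes tested. BMI1, a Polycomb protein, fell 1.37-fold and AJUBA, a LIM protein that links SNAIL to corepressors, fell 1.24-fold, while the DNA methyltransferases DNMT3B and DNMT3A rose 1.31-fold and 1.19-fold. Of 21 measured regulators of SNAIL and ZEB protein stability, 4 rose and 10 fell, 66.7% of the list, with a median of -0.03. The share called was 55.8% over all genes tested and 66.1% over genes with a mean value of at least 100. The 4 rises and 10 falls became 7 and 6 with total count scaling. The falls became 6 without siNT replicate 2, and the rises became 2 without siTAZ replicate 2 or without the intensity trend. FBXO45, part of a ubiquitin ligase for SNAIL and ZEB proteins, fell 2.03-fold, with means of 1134 ± 25.8 and 558 ± 39.6 (limma adjusted p = 1.0e-09), and the kinases CSNK1A1 and CSNK2A1 fell 1.31-fold and 1.27-fold. STUB1, a ubiquitin ligase, fell with a log2 fold change of -0.26.

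Of 22 measured ligands, receptors and SMADs that can induce EMT, 7 rose and 7 fell, with a median of 0.08. Their called share of 63.6% was near the 55.8% of all genes tested. The rises became 4 without siTAZ replicate 2 and without the intensity trend. The ligands TGFB2 and JAG1 fell 1.97-fold, from 1788 ± 81.4 to 906 ± 24.9, and 2.13-fold, from 6740.4 ± 163 to 3168 ± 58.5. TGFBR3, betaglycan, the coreceptor that presents TGF-beta 2, rose 3.03-fold, from 427 ± 26.2 to 1296 ± 56.2 (limma adjusted p = 6.0e-12), and SMAD3 fell 1.28-fold. Of 4 measured microRNA host transcripts, MIR100HG, MIR31HG and MIR22HG fell 3.38-fold, 2.41-fold and 2.20-fold, and 1 did not pass. The called share of 75.0% rests on these 4 genes, against 55.8% of all genes tested. MIR200CHG, the host of microRNAs that target ZEB1, was not analysed here.

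Tested against a fold of 1.2, most of these list counts shrank, since many of the calls were of small size. Limma treat called 1 fall among EMT transcription factors, and 1 rise and 0 falls among splicing regulators. Among genes with ESRP-regulated exons it called 2 rises and 3 falls. The calls of TCF3, GRHL1, GRHL3, CTNND1, CTNNB1, KRT8, KRT18, RBFOX2 and RBM47 were lost in this test. So were those of HNRNPF, AKAP8, AJUBA, DNMT3A, DNMT3B, CSNK2A1, STUB1 and SMAD3.

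**Figure D5:**
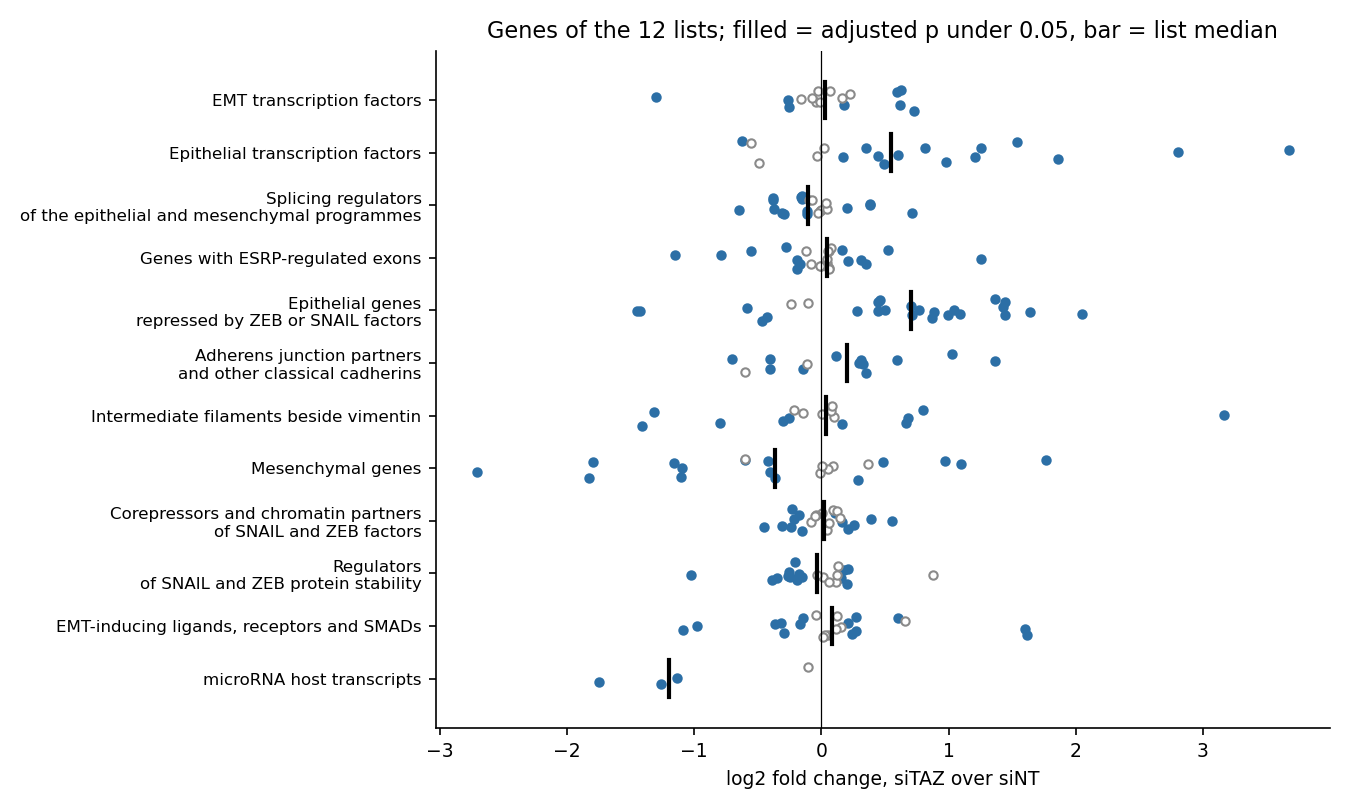
Log2 fold changes of siTAZ over siNT for every measured gene of the 12 lists (points, filled where the limma adjusted p was under 0.05) with the list median as a bar. The medians of the genes repressed by ZEB or SNAIL factors (0.71) and of epithelial transcription factors (0.55) lie above 0, that of mesenchymal genes lies at -0.37, and splicing regulators gather around -0.11.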

How the data were processed

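RNA of 6 samples was measured by sequencing of stranded poly(A) libraries, per the labels' protocols. FastQC, HISAT2, HTSeq and DESeq2 were used on genome build hg19, per the submitters' processing notes. No source states their versions, the annotation, the strand setting or the gene filter. The values the authors deposited are a signal, namely reads per gene divided by 1 size factor per library: dividing by the smallest step of a library returned whole reads for 100% of values, to a tolerance of 0.001 reads. Of 17211 genes, 468 had no symbol, and symbols came for 16662 from a table of Ensembl identifiers and for 81 from GENCODE release 29, which also gave transcript lengths. A symbol without a row counts as not analysed.

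Limma 3.58.1 (R 4.3.3) was fitted with an intensity trend to log2(value + 1) with group as the only term, after genes whose mean was under 1 were dropped, which left 17204. Benjamini-Hochberg adjustment covered all of these, and calls were made under 0.05. Folds are of mean deposited values, and log2 fold changes are on the log2(value + 1) scale, which understates low genes. edgeR 4.0.16, DESeq2 1.42.0 and limma voom on the recovered reads, other pseudocounts, filters and scalings, a replicate block and leaving out each library were the alternatives. The main limma fit, edgeR, DESeq2 and limma voom were tested on simulated data in which only a small part of the genes changed. The other alternatives were not tested in that way. Replicates were compared by their reads, and the chi-square per degree of freedom was 2.75 to 8.62, so none was a copy. The members and the 12 pathway and 6 marker lists were chosen with earlier results of these data known. Genes named were the members, 21 genes set by name, and up to 4 called genes per list with the smallest adjusted p, with exceptions stated, and some genes under this rule are not reported here. KLF4, ID1, RBM24, FGFR2 and CDH11 were added after their values were seen. The planned ratio of ZEB1 to GRHL2 could not be formed. Python 3.11.15, pandas 2.3.3, numpy 2.4.6 and matplotlib 3.10.9 were used.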

Additional observations from a re-analysis of the deposited data

How the results depend on the processing

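Over 18 alternatives, 2 to 3 of the 8 genes were called higher and 3 to 4 lower. ESRP2 was the added rise and SNAI2, with limma treat, the lost fall. Log2 fold changes spanned -0.49 to -0.41 for ZEB1, -0.67 to -0.49 for SNAI1, -0.68 to -0.44 for SNAI2, -0.60 to -0.51 for VIM, 1.13 to 1.23 for CDH1 and 1.54 to 1.70 for TCF4. Against a fold of 1.2, limma treat called 4417 genes in place of 9604, 2497 higher and 1920 lower, because it asks for a larger change. Leaving out 1 library at a time gave 8538 to 9674 calls. Leaving out 1 library, ESRP1 ran from -0.13 to 0.47, SNAI3 from -0.19 to 0.84 and FN1 from -0.047 to 0.035. Signs turned for genes that had not passed: TCF12 (0.010) and FN1 (0.040) with total count scaling, FN1 without siNT replicate 2 (0.035) or siTAZ replicate 1 (0.0055), SNAI3 without siNT replicate 2 (-0.19) or siTAZ replicate 1 (-0.12), and ESRP1 without siNT replicate 3 (-0.13), where the cause was not tested. With a replicate block, 8701 genes were called, 4439 higher and 4262 lower, with 2 rises and 4 falls among the 8 genes, 6 falls among splicing regulators, and the calls of CTNNB1 (adjusted p = 0.16) and KRT8 (0.057) lost in limma. No effect shared by same-numbered libraries was seen. Their deviations had r of -0.14, -0.08 and 0.02 across 15460 genes, which are not independent, and not every library was most alike to its own number. With 3 libraries per group, this cannot show whether the samples were handled in pairs. Without the trend KRT8 (0.053) and CTNNB1 (0.065) also missed the threshold in limma. ESRP1 was filtered out under 3 alternatives, and its few reads limit what can be seen.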
